A study of Mus musculus with 568 samples.

Results

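The mitogen-activated protein kinase (MAPK) cascade was examined through the RNA of 8 genes, 4 kinds of brake and a pair of transcription factors known as its targets. The activity of the cascade itself was not measured. The members were Dusp9 and Klhl13, both on the X chromosome, the phosphatase gene Dusp6, the Sprouty genes Spry2 and Spry4, the Sprouty-related gene Spred1, and the ETS factor genes Etv4 and Etv5. They were chosen by name for their known place in the pathway, with earlier results of these data known. All 8 were found among the 16335 genes of the bulk table and among the 15718 genes of the single-cell table, and all 8 passed the bulk filter of a mean normalized count above 10.

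In this cascade a growth factor such as FGF activates its receptor, RAS is loaded, and RAF, MEK and ERK are phosphorylated in turn. ERK activity switches on genes that dampen the pathway itself. DUSP6 and DUSP9 remove phosphate from ERK, Sprouty and SPRED proteins act on RAS and RAF above it, and ETV4 and ETV5 are ETS-family transcription factors induced by FGF and ERK. KLHL13 is a substrate adaptor of the Cullin3 ubiquitin ligase. Dusp9 and Klhl13 have both been put forward as X-linked brakes whose dose differs between cells with 1 and with a pair of active X chromosomes, and low ERK activity is known to favour naive pluripotency in mouse embryonic stem cells (ESCs).

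All samples came from XRep, a female mouse hybrid ESC line with 1 X from 129S1/SvImJ (Xmus) and 1 from CAST/EiJ (Xcas). Xmus carries a Tsix truncation and a GFP reporter in Hprt (XGFP), and Xcas carries a tdTomato reporter. Every group, ESCs included, also carries rtTA at Rosa26 and doxycycline-inducible Prdm1 (Blimp1), Prdm14 and Tfap2c transgenes inserted by piggyBac. Bulk RNA-seq was made from 4 groups of 4 libraries. ESCs were kept in serum and LIF, with a step in 2i and LIF before differentiation. The 2i mixture holds a MEK inhibitor, and the sources do not say whether the harvested ESCs had been through that step. Epiblast-like cells (EpiLCs) were grown with bFGF and activin A for 48 h and a further 48 h. Primordial germ cell-like cells (PGCLCs) were taken on day 5 of aggregate culture with 1.5 µg/ml doxycycline, sorted as SSEA1+/CD61+ cells and divided into XGFP+ and XGFP- cells, that is, with the GFP reporter on Xmus active or silent. Single-cell RNA-seq was made from ESCs and from 4 populations of an in vitro reconstituted ovary (rOvary), in which PGCLCs were cultured for 6 days with female somatic gonadal and mesonephric cells of E13.5 embryos. Cells of 3 populations descended from XGFP- PGCLCs and were sorted as XGFPhigh, XGFPintermediate and XGFPlow, and the fourth, constitutive XGFP+, descended from XGFP+ PGCLCs.

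The bulk libraries held 29.8 M to 46.5 M reads in genes. The study describes a pair of clones with technical replicates of each, and the labels number the libraries 1 to 4 without tying them to clones or cultures. Some libraries may thus be technical replicates, and the p-values measure only the spread between these libraries. Of 10 germ cell marker genes the summed normalized count was 61971 to 69310 in the PGCLC groups, 33963 to 35602 in EpiLCs and 72617 to 79520 in ESCs, which share the pluripotency genes of that list. Summed markers of neural cells (5 genes) were 9558 to 17167 in EpiLCs against 2980 to 7648 elsewhere, those of mesoderm and endoderm (3 of 8 genes listed) 590 to 2932 against 20.8 to 253, and those of gonadal supporting cells (6 of 8) 2881 to 5371 against 101.2 to 408. The neural sum of EpiLCs was mostly Nes (mean 11583), and Neurod1 was also highest in EpiLCs. Tubb3 and Sox1 were highest in ESCs and Pax6 in XGFP+ PGCLCs. The gonadal supporting sum of EpiLCs was mostly Fst (mean 3562), with Wt1 and Wnt4 also highest there. Amhr2 and Gata4 were highest in ESCs and Irx3 in XGFP- PGCLCs. The part of such cell types in the EpiLC values of the members was not tested. The endothelial sum (4 of 5) was 8369 to 9355 in XGFP- PGCLCs, 7739 to 8718 in XGFP+ PGCLCs, 6134 to 8320 in ESCs and 1356 to 1856 in EpiLCs. It was mostly Pecam1 (mean 8558 in XGFP- PGCLCs). Cdh5 was also highest in XGFP- PGCLCs (mean 194), whereas Kdr and Tek were highest in ESCs. The part of such cells in the PGCLC values was not tested either. Stromal (3 of 8) and blood (1 of 5) lists did not exceed 176 and 387 in any library.

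To show the regulatory sequence next to these genes, the 250 bases before the annotated start were read from the RefSeq promoter table for GRCm38.p6, in which 10 windows matched 5 members. They were searched on both strands for the ETS core CCGGAA, which the ETV proteins can bind, and for the AP-1 motif TGANTCA. The ETS core occurred in 12.03% and the AP-1 motif in 6.75% of 32851 windows. Klhl13 has 5 windows, some overlapping, of which 2 held the ETS core and 1 the AP-1 motif. The 2 windows with the ETS core overlap and hold the same site, at -186 and -205 from their starts. The single windows of Dusp6, Spry2 and Spred1 and both windows of Etv5 held neither string, which says only that these letters were not in those windows. The windows of Klhl13 (chrX:23365083-23365332, minus strand), Dusp6 (chr10:99262981-99263230, plus strand) and Spred1 (chr2:117120821-117121070, plus strand) are given 5′ to 3′, since these 3 genes differed between XGFP- and XGFP+ PGCLCs. Capitals mark the ETS core, here on the opposite strand, at position -186 from the start of Klhl13, and the other letters are lower case.
Klhl13: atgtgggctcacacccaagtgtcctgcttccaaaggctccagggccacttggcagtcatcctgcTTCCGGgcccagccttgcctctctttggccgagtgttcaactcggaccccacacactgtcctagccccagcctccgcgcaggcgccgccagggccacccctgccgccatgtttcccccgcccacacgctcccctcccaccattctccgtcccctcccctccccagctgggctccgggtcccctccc
Dusp6: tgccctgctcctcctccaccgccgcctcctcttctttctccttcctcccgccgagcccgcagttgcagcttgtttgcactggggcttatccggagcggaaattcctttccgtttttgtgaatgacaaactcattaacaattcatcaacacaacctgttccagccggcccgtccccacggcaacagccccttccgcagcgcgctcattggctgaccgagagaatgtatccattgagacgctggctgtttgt
Spred1: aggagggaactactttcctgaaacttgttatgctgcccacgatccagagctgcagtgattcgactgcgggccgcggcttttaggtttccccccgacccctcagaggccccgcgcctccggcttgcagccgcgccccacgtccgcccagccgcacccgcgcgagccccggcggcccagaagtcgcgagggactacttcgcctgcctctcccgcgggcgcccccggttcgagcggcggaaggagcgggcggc

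Across the time course the members did not move as one. Dusp6, Etv4, Spry4 and Dusp9 rose most from ESCs to EpiLCs, the state grown with bFGF. In PGCLCs Dusp6, Spry2 and Etv4 were lower again in both populations. Between the PGCLC populations, XGFP- cells had less Dusp9, Klhl13 and Etv4 and more Dusp6 and Spred1 than XGFP+ cells.

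**Figure D1:**
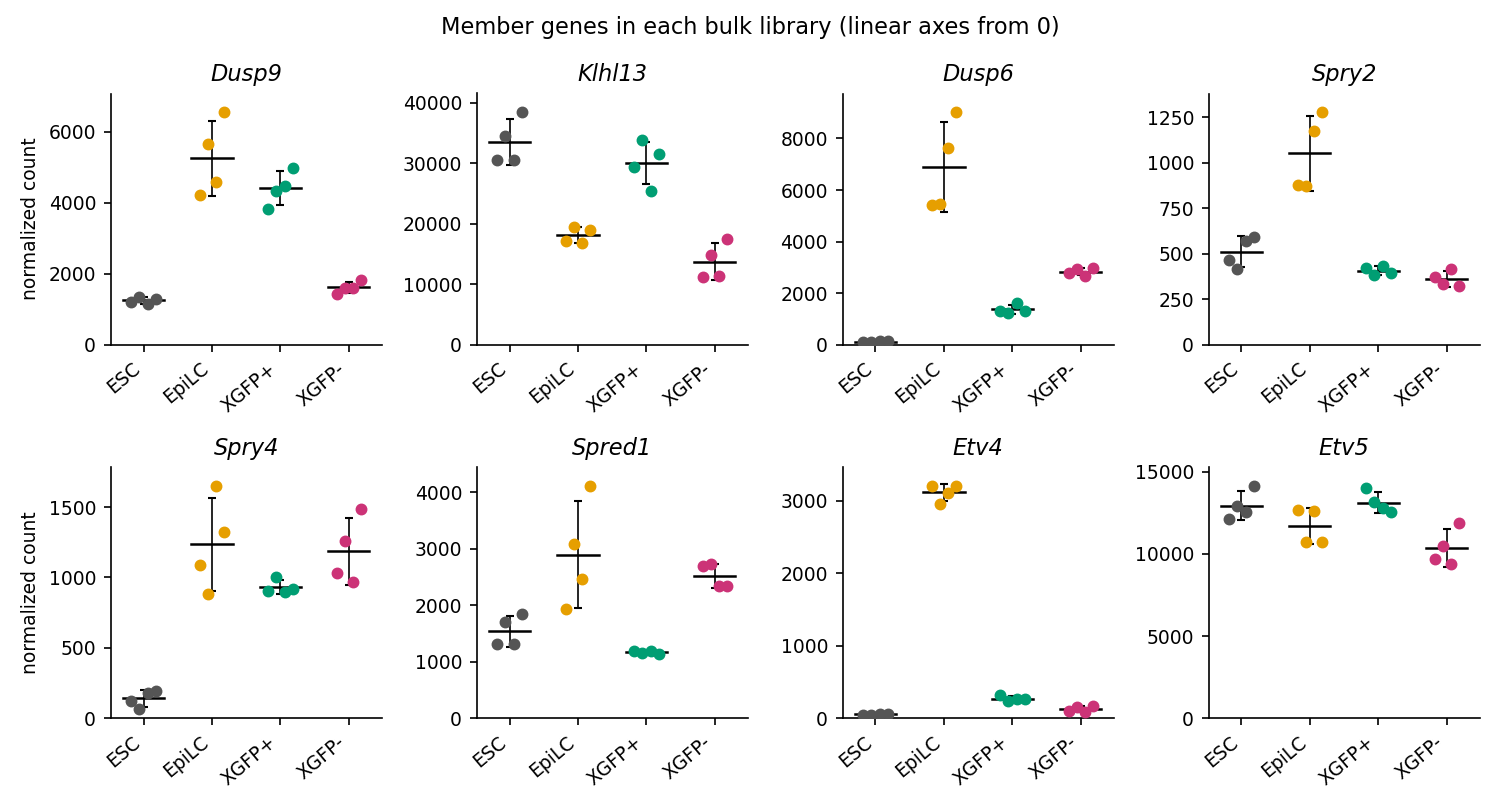
Normalized count of each member in the 16 bulk libraries, in 1 panel per gene, with 1 point per library and a bar at the group mean. Dusp6 sits between 105.7 and 138.01 in ESCs and between 5424 and 9023 in EpiLCs, whereas Etv5 stays between 9363 and 14154 in all 4 groups.

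Values are given as normalized counts for libraries 1 to 4 in order, and means as mean ± SD with n = 4 libraries per group. Changes are differences of log2(normalized count + 1) ± SE from limma, and a gene was called at an FDR (Benjamini-Hochberg over 16281 genes) below 0.001. In bulk samples fewer cells that express a gene and less RNA per cell cannot be told apart.

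Dusp9 (ENSMUSG00000031383, chrX:73639419-73643514, plus strand, mm10) encodes an ERK phosphatase and is X-linked. Its counts in ESCs were 1200, 1347, 1141 and 1286 (1243 ± 91.1). In EpiLCs they were 4225, 5651, 4575 and 6547 (5249.7 ± 1057). XGFP+ PGCLCs overlapped that range with 3829, 4338, 4477 and 4976 (4405 ± 472). All 4 XGFP- libraries were far lower, between ESCs and the other groups. They had 1438, 1585, 1595 and 1824 (1610.4 ± 159.7), above the highest ESC library and below the lowest XGFP+ library. Dusp9 thus rose 4.16-fold from ESCs to EpiLCs (log2 2.06 ± 0.11, FDR 1.40e-11). XGFP+ PGCLCs were still above ESCs (log2 1.82, FDR 1.05e-10), and their difference from EpiLCs did not pass (log2 -0.24, FDR 0.068). In XGFP- PGCLCs Dusp9 was lower than in EpiLCs (log2 -1.69, FDR 1.40e-10) and 2.73-fold lower than in XGFP+ PGCLCs (log2 -1.45 ± 0.11, FDR 1.43e-08). The difference of XGFP- PGCLCs from ESCs was not called (log2 0.37, FDR 0.00685).

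Klhl13 (ENSMUSG00000036782, chrX:23219271-23365082, minus strand), the Cullin3 adaptor gene, had the highest level per kilobase of exon of the members in each group, from 7876 in ESCs to 3216 in XGFP- PGCLCs. Its ESC counts were 30559, 34492, 30486 and 38445 (33496 ± 3794). In EpiLCs they were 17194, 19524.5, 16859 and 18965 (18135 ± 1308), below every ESC library. XGFP+ PGCLCs, at 29351, 33791, 25485 and 31442 (30017 ± 3524), overlapped ESCs. XGFP- PGCLCs had 11165, 14758, 11279 and 17513.5 (13679 ± 3052), and only library 4 reached into the range of EpiLCs. In EpiLCs Klhl13 fell by 0.88 ± 0.12 on the log2 scale against ESCs (FDR 4.36e-06), in the opposite direction to Dusp9. XGFP+ PGCLCs were higher than EpiLCs (log2 0.72, FDR 3.52e-05) and did not pass against ESCs (log2 -0.16, FDR 0.261). XGFP- PGCLCs were 2.22-fold lower than XGFP+ PGCLCs (log2 -1.15 ± 0.12, FDR 5.44e-07). Against EpiLCs the XGFP- difference was -0.43 ± 0.12 (FDR 0.00395, not called). Without library 4 of XGFP- PGCLCs it was -0.56 and was called (FDR 0.000174).

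Dusp6 (ENSMUSG00000019960, chr10:99263231-99267489, plus strand), the cytoplasmic ERK phosphatase gene that ERK itself induces, had the steepest course beside Etv4. ESC counts were 113.4, 105.7, 131.4 and 138.01 (122.1 ± 15.1). EpiLC counts were 5424, 5466, 7634 and 9023 (6886 ± 1759). No ESC library came near the EpiLC range, and the change was 54.9-fold (log2 5.78 ± 0.14, FDR 2.07e-16). XGFP+ PGCLCs had 1304, 1228, 1630.1 and 1296 (1364 ± 180.3). XGFP- PGCLCs had 2779, 2928, 2664 and 2977 (2837 ± 142.6), so that the PGCLC groups overlapped neither each other nor ESCs or EpiLCs. Dusp6 fell against EpiLCs in XGFP+ (log2 -2.31, FDR 3.14e-11) and XGFP- PGCLCs (log2 -1.25, FDR 1.35e-07), and XGFP- exceeded XGFP+ PGCLCs 2.09-fold (log2 1.06 ± 0.14, FDR 5.18e-06). XGFP+ PGCLCs were still above ESCs (log2 3.47, FDR 2.12e-13). Per kilobase, the median ratio of Dusp9 to Dusp6 was 11.5 for ESCs and 0.866 for EpiLCs, and 3.72 and 0.656 for XGFP+ and XGFP- PGCLCs.

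Spry2 (ENSMUSG00000022114, chr14:105891947-105896819, minus strand) encodes a Sprouty inhibitor of receptor signalling. Its ESC counts were 465, 417, 572 and 594 (512 ± 84.8), against 879, 871, 1176 and 1279 (1051 ± 208) in EpiLCs. It rose in EpiLCs (log2 1.03 ± 0.13, FDR 1.73e-06), where every library was above every ESC library. XGFP+ PGCLCs had 422, 385.5, 433 and 391 (408 ± 22.9) and XGFP- PGCLCs 373, 331, 417 and 325 (361 ± 42.9). Both PGCLC groups were lower than EpiLCs (log2 -1.34, FDR 4.05e-08, and log2 -1.52, FDR 5.66e-09), and they overlapped each other (log2 -0.18 ± 0.13, FDR 0.286). XGFP+ PGCLCs against ESCs gave log2 -0.31 (FDR 0.0446, not called).

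Spry4 (ENSMUSG00000024427), the other Sprouty member, stayed high in both PGCLC groups. Its ESC counts were 120.1, 65.2, 182 and 192 (139.9 ± 59.1). EpiLCs had 1086, 882, 1652 and 1322 (1236 ± 331), a 9.28-fold rise (log2 3.21 ± 0.26, FDR 2.30e-09). The PGCLC counts lay beside those of EpiLCs. XGFP+ PGCLCs had 902, 1001, 894 and 921 (929.6 ± 49.1) and XGFP- PGCLCs 1029, 1261, 968 and 1485 (1186 ± 236). Against EpiLCs the differences were log2 -0.37 (FDR 0.194) and -0.04 (FDR 0.885), and XGFP- against XGFP+ gave 0.33 ± 0.26 (FDR 0.302), none of them called. XGFP+ PGCLCs were above ESCs (log2 2.84, FDR 1.39e-08). Per kilobase, the median ratio of Spry4 to Spry2 was 0.127 for ESCs and 0.498 for EpiLCs, and 0.986 and 1.44 for XGFP+ and XGFP- PGCLCs.

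Spred1 (ENSMUSG00000027351, chr2:117121374-117182279, plus strand) encodes a RAS brake that works with neurofibromin. Its counts were 1313, 1699.6, 1307 and 1849.6 (1542 ± 275) in ESCs and 1928, 3083, 2466 and 4122 (2899.8 ± 942) in EpiLCs. All EpiLC libraries were above the ESC libraries, although library 1 of EpiLCs was close to them. Spred1 was called higher in EpiLCs (log2 0.87 ± 0.16, FDR 0.00012), but not when those groups were fitted alone (FDR 0.00207). XGFP+ PGCLCs had 1195, 1146, 1194 and 1138 (1168 ± 30.2), below every other library. XGFP- PGCLCs had 2689.9, 2732, 2342 and 2347 (2528 ± 212), within the EpiLC range. Spred1 was lower in XGFP+ PGCLCs than in EpiLCs (log2 -1.25, FDR 1.41e-06) and 2.16-fold higher in XGFP- than in XGFP+ PGCLCs (log2 1.11 ± 0.16, FDR 2.22e-05). XGFP- against EpiLCs (log2 -0.15, FDR 0.424) and XGFP+ against ESCs (log2 -0.38, FDR 0.0447) did not pass.

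Etv4 (ENSMUSG00000017724, chr11:101769742-101785371, minus strand), an ETS factor gene and a common readout of FGF signalling, was highest in EpiLCs by a wide margin. Its ESC counts were 50.5, 39.5, 64.1 and 63.3 (54.4 ± 11.7), and its EpiLC counts 3208, 2958, 3101 and 3199 (3117 ± 116.5). The rise was 57.3-fold (log2 5.84 ± 0.19, FDR 1.28e-14). XGFP+ PGCLCs had 323, 230.3, 264 and 263 (270.2 ± 38.5) and XGFP- PGCLCs 97.9, 153, 85.6 and 171 (127.01 ± 41.6). Every XGFP- library was below every XGFP+ library, and both groups lay between ESCs and EpiLCs. Etv4 fell against EpiLCs in XGFP+ (log2 -3.53, FDR 8.91e-12) and XGFP- PGCLCs (log2 -4.66, FDR 1.42e-13), and XGFP- were 2.19-fold lower than XGFP+ PGCLCs (log2 -1.13 ± 0.19, FDR 9.65e-05). XGFP+ PGCLCs remained above ESCs (log2 2.31, FDR 4.92e-09). Dusp6 and Etv4 thus differed in opposite directions between the PGCLC populations, and their median ratio per kilobase was 2.19 for ESCs and 2.14 for EpiLCs against 5.08 and 23.5 for XGFP+ and XGFP- PGCLCs.

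Etv5 (ENSMUSG00000013089, chr16:22381309-22439719, minus strand), the paralog of Etv4, was abundant throughout. Its ESC counts were 12114.5, 12912, 12573 and 14154 (12938 ± 874), and its EpiLC counts 12649.6, 10746, 12582 and 10734 (11678 ± 1083). Those groups overlapped (log2 -0.15 ± 0.077, FDR 0.093). XGFP+ PGCLCs had 14008, 13127, 12767 and 12542 (13111 ± 645) and XGFP- PGCLCs 9687, 10459, 9363 and 11901 (10352.5 ± 1130.3). The PGCLC groups did not overlap, yet their difference of -0.35 ± 0.077 was just outside the threshold (FDR 0.00114). It was called by edgeR (FDR 0.000923), by DESeq2 (FDR 0.000171) and by limma without library 4 of XGFP- PGCLCs (FDR 0.000174). Etv5 in XGFP+ PGCLCs differed from EpiLCs by log2 0.17 (FDR 0.0524) and from ESCs by 0.02 (FDR 0.826), and in XGFP- PGCLCs from EpiLCs by -0.18 (FDR 0.0448), none called. In XGFP- PGCLCs against ESCs it was called lower (log2 -0.33, FDR 0.00085). Per kilobase, the median ratio of Etv4 to Etv5 was 0.00571 for ESCs and 0.35 for EpiLCs, and 0.0276 and 0.0162 for XGFP+ and XGFP- PGCLCs.

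**Figure D2:**
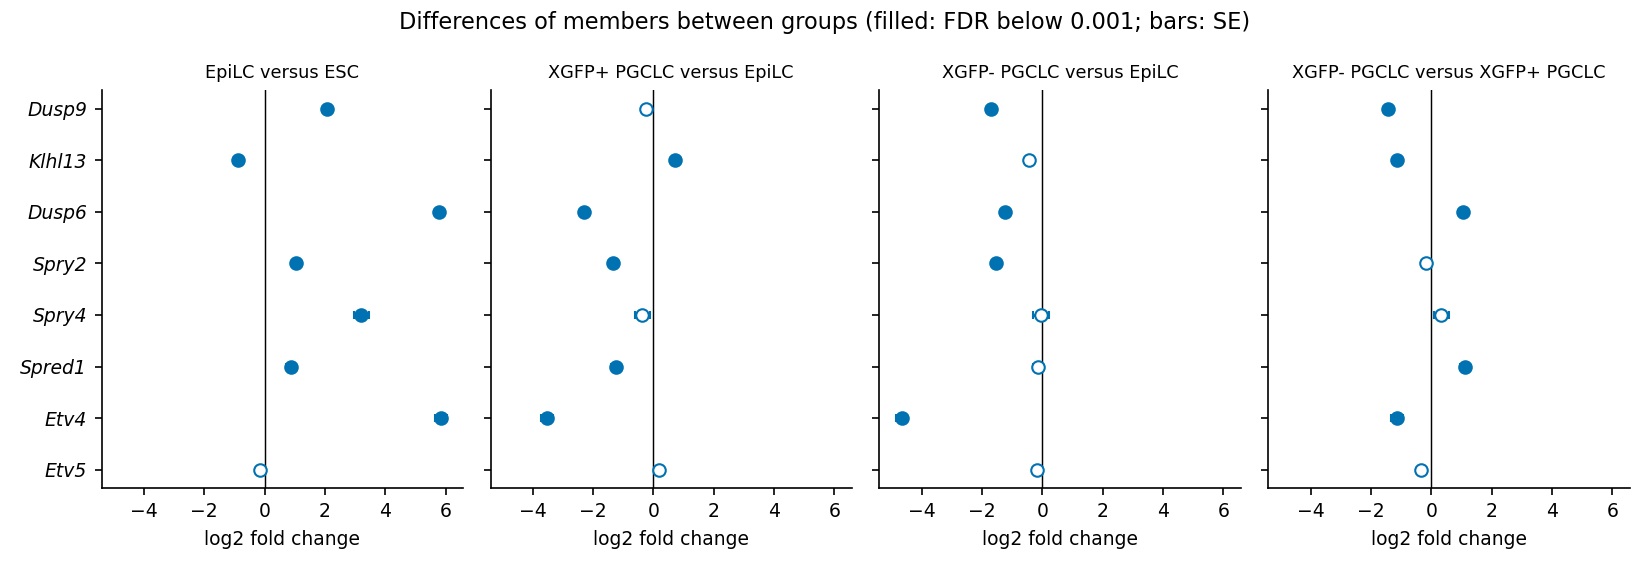
Difference of log2(normalized count + 1) for each member in 4 comparisons, as points with bars of 1 SE. Filled points passed an FDR of 0.001. From ESCs to EpiLCs Dusp6 (5.78) and Etv4 (5.84) lie farthest from 0, and between XGFP- and XGFP+ PGCLCs Dusp9, Klhl13 and Etv4 lie below 0 with Dusp6 and Spred1 above it.

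Counted over the members, 6 of 8 were called higher and 1 lower in EpiLCs than in ESCs, where 24.9% and 22.9% of all tested genes were called higher and lower. Their median difference was 1.54 beside 0.00879 over all genes. In XGFP+ PGCLCs against EpiLCs 1 member was higher and 4 lower, with 27.8% and 29.5% of all genes. In XGFP- PGCLCs against EpiLCs 4 were lower and 0 higher, with 31.9% and 29.9% of all genes. For that 0, limma gave 0 members higher at an unadjusted p under 0.05, and edgeR and DESeq2 called 0. The medians of the members in these comparisons were -0.81 and -0.84, beside -0.00417 and -0.0259 over all genes. In XGFP- against XGFP+ PGCLCs 2 members were higher and 3 lower, where 11.3% and 12.5% of all genes were called, and the median was -0.26 beside 0.0134. In XGFP+ PGCLCs against ESCs 4 members were higher and 0 lower, with 25% and 24.9% of all genes and a median of 0.92 beside 0.00184. For the latter 0, limma gave 2 members lower at an unadjusted p under 0.05, and edgeR and DESeq2 called 0. These comparisons share groups and are not independent of each other.

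The other genes of the pathway were examined in 8 lists of 84 genes, of which 83 were tested. In EpiLCs against ESCs 35 (42.2%) were higher and 16 (19.3%) lower, beside 24.9% and 22.9% of all genes. In XGFP- against XGFP+ PGCLCs 12 (14.5%) were higher and 12 lower, near the 11.3% and 12.5% of all genes. Against EpiLCs 25 (30.1%) were higher and 39 (46.99%) lower in XGFP+ PGCLCs, beside 27.8% and 29.5% of all genes. In XGFP- PGCLCs 27 (32.5%) were higher and 34 (40.96%) lower than in EpiLCs, beside 29.9% and 31.9%. Of 8 other MAPK phosphatases 6 rose and 1 fell in EpiLCs. Dusp4, an ERK phosphatase of the nucleus, rose from 98.7 ± 22.9 to 5775 ± 1520.4 (log2 5.85, FDR 1.89e-15), close to the change of Dusp6, and the member that fell was Dusp1 (log2 -0.61, FDR 0.000174). Between the PGCLC populations 1 of these 8 was called. Of 12 other Sprouty, Spred and RAS brakes 5 rose in EpiLCs, led by Spred3 (log2 3.96, FDR 1.55e-12), and 3 were higher in XGFP- than in XGFP+ PGCLCs, led by Spry1 (605 ± 38.8 against 363 ± 50.95, log2 0.75, FDR 1.78e-05). Spry1 thus differed where Spry2 and Spry4 did not pass, though the difference between these genes was not tested.

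Among 14 immediate early and other ERK-induced genes 7 rose and 5 fell in EpiLCs, beside 24.9% and 22.9% of all genes. Etv1, the third gene of the Etv4 and Etv5 subfamily, rose (log2 2.84, FDR 7.59e-10), and the ephrin receptor gene Epha4 fell from 16410 ± 632 to 430 ± 102.9 (log2 -5.28, FDR 2.01e-16). In XGFP- against XGFP+ PGCLCs 4 of these 14 were higher and 2 lower, beside 11.3% and 12.5% of all genes. Ier3 was at log2 1.37 (FDR 0.000123) and the cyclin gene Ccnd1 at -2.58 (FDR 2.73e-07). Like the members and like all genes, the called ERK-induced genes moved in both directions between the populations.

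Of 8 tested ligand genes 3 rose and 2 fell in EpiLCs, with Fgf5, a marker of the formative epiblast, at log2 8.43 (FDR 2.03e-16) and Kitl, the ligand of KIT, at -1.95 (FDR 8.02e-06). In XGFP- against XGFP+ PGCLCs Fgf5 was higher (log2 1.68, FDR 1.90e-06) and Fgf4, the FGF that ESCs themselves secrete, was lower (54.9 ± 10.8 against 684 ± 304, log2 -3.51, FDR 3.82e-09), among 1 higher and 3 lower. Of 11 receptor genes 5 rose and 3 fell in EpiLCs, led by Egfr (log2 3.36, FDR 1.33e-08) and Kit (log2 -3.57, FDR 7.31e-16). Between the PGCLC populations Kit was higher (log2 0.51, FDR 0.000217) and Erbb2 lower in XGFP- cells (log2 -3.40, FDR 7.67e-08), among 1 higher and 3 lower. Of all genes 24.9% rose and 22.9% fell in EpiLCs. Between the PGCLC populations 11.3% of all genes were higher and 12.5% lower in XGFP- cells.

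Of 11 adaptor and RAS genes 3 rose and 1 fell in EpiLCs, beside 24.9% and 22.9% of all genes. Hras was at log2 0.80 (FDR 6.30e-09) and Grb2 at -0.57 (FDR 8.49e-05). In XGFP- against XGFP+ PGCLCs 2 adaptor and RAS genes were lower, Gab1 most (log2 -0.92, FDR 1.33e-06), beside 12.5% of all genes. Of 15 genes of the RAF, MEK, ERK, scaffold and RSK list 4 rose and 4 fell in EpiLCs, beside 24.9% and 22.9% of all genes, led by the kinase gene Rps6ka2 (log2 1.13, FDR 1.88e-08) and the scaffold gene Ksr1 (log2 -1.50, FDR 3.45e-09). Between the PGCLC populations 1 gene of this second list was higher in XGFP- cells, Mapk3, which encodes ERK1 (log2 0.53, FDR 1.98e-05). Another 2 were lower, with Ksr1 at -1.06 (FDR 1.40e-06), beside 11.3% and 12.5% of all genes higher and lower. Of 4 Cullin3 partner genes of Klhl13, Klhl9, whose protein pairs with KLHL13, rose in EpiLCs (log2 1.29, FDR 1.59e-09) and exceeded its XGFP+ level in XGFP- PGCLCs (log2 0.62, FDR 5.80e-05), the opposite direction to Klhl13 in both comparisons.

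Profiles most like each member over the 16 libraries were found among the 11702 genes whose mean normalized count exceeded 100, by the root mean square (RMS) difference of log2(normalized count + 1) after centring each gene. For Dusp9 the nearest were Pabpc4l (RMS 0.288) and Ddx4 (0.303), and for Klhl13 Gm17067 (0.169) and the X-linked Wnk3 (0.189). Dusp6 was nearest to Vwa2 and Fign (both 0.402), and Etv4 to Coro2a (0.481) and Rtl8b (0.577). The neighbours of the others were Sesn2 (0.116) and Arhgap35 (0.119) for Spry2, Tbc1d12 (0.207) and Zfp334 (0.208) for Spred1, and Rfc5 (0.0784) and Ube2c (0.0927) for Etv5. Spry4 was nearest to Fam19a5 (0.351) and Slc36a4 (0.364). The closest pair among the members was Klhl13 and Etv5 (0.428), whereas Dusp6 and Etv4 stood 1.41 apart and the paralogs Etv4 and Etv5 2.22 apart.

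Dusp9 could be divided between the X chromosomes. The deposited mus ratio is the fraction of allele-informative reads from Xmus, and its read numbers are not in the table, so its counting error is unknown. The ratio of Dusp9 in ESC libraries 1 to 4 was 0.382, 0.444, 0.452 and 0.432 (0.427 ± 0.0312). In EpiLCs it was 0.127, 0.134, 0.114 and 0.0964 (0.118 ± 0.0166). It was 0.365, 0.328, 0.245 and 0.263 in XGFP+ PGCLCs (0.3 ± 0.056) and 0, 0.00258, 0.00139 and 0.00885 in XGFP- PGCLCs (0.00321 ± 0.00391). No 2 groups overlapped, and Xmus gave under 1% of the Dusp9 reads in each XGFP- library. In an exact two-sided permutation test each of the 6 pairs of groups gave p = 0.0286, the smallest that 4 against 4 libraries allow (0.0286 after Benjamini-Hochberg adjustment over 6). The PGCLC groups were sorted by a reporter on Xmus. Their difference in the ratio and in the Xmus level is therefore not independent of the sort. Over the 160 X-linked genes with biallelic ESC reads and a mean count above 100 the median ratios were 0.469, 0.244, 0.408 and 0.0486 in the same order. In XGFP+ PGCLCs 24.4% and in EpiLCs 12.5% of those genes had a lower ratio than Dusp9.

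Multiplying each ratio by the normalized count gave the Dusp9 level borne by each X. Xmus bore 532 ± 59.3 of the ESC and 611 ± 109.6 of the EpiLC count, 1305 ± 148 of that of XGFP+ and 5.62 ± 7.22 of that of XGFP- PGCLCs. In the same order, Xcas bore 712 ± 57.9, 4639 ± 989.6, 3100 ± 542 and 1605 ± 153. The rise of Dusp9 from ESCs to EpiLCs was therefore on Xcas, 6.52-fold (exact permutation p = 0.0286, 0.0312 adjusted over 12 tests), while the Xmus level did not differ detectably (exact permutation p = 0.286). In XGFP+ PGCLCs both alleles were above ESCs, Xmus 2.45-fold and Xcas 4.36-fold (exact permutation p = 0.0286 and adjusted p = 0.0312 for each). In XGFP- PGCLCs the level from Xmus was close to 0, and that from Xcas was also lower than in XGFP+ PGCLCs, at 0.518 of it (exact permutation p = 0.0286, adjusted 0.0312). The numbers pair these PGCLC libraries, and in an exact paired permutation test the ratio, the Xmus and the Xcas level each gave p = 0.125, the smallest that 4 pairs allow, with XGFP- lower in 4 of 4 pairs. The Xcas level in XGFP- PGCLCs was still 2.26 times that of ESCs (exact permutation p = 0.0286, adjusted 0.0312). Xcas in XGFP+ PGCLCs was lower than in EpiLCs (exact permutation p = 0.0286, adjusted 0.0312), but with TMM scaling this did not pass (exact permutation p = 0.0571, adjusted 0.0623).

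Against the same 160 genes, the log2 Xcas change of Dusp9 from ESCs to EpiLCs was 2.70 beside a median of 0.08, and 95% of the genes changed less or fell. From XGFP+ to XGFP- PGCLCs it was -0.95 beside a median of 0.13 (quartiles -0.08 and 0.45), with 11 of the genes (6.88%) lower. Dusp9 thus went against the middle of the X-linked genes on the X that carries no GFP.

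**Figure D3:**
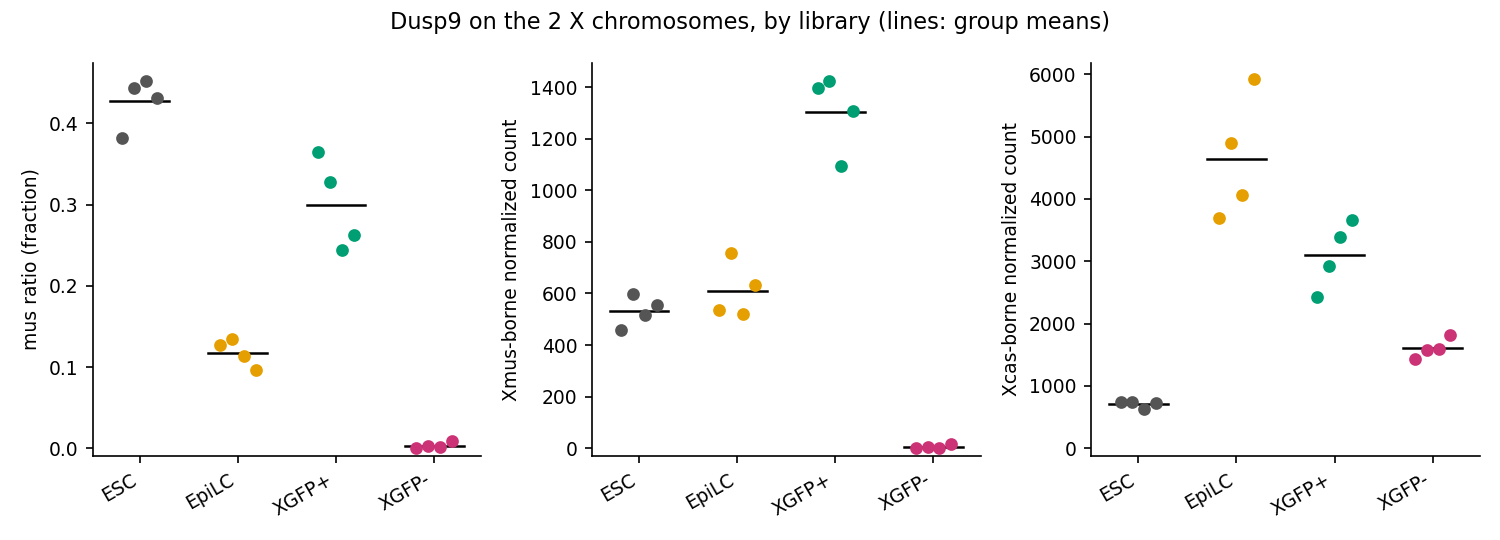
The mus ratio of Dusp9 and its normalized count borne by Xmus and by Xcas in each of the 16 bulk libraries, with bars at the group means. The ratio is lowest in XGFP- PGCLCs (0 to 0.00885), and the Xcas level is highest in EpiLCs (4639 ± 989.6).

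A pair of pathway genes outside the members are X-linked and biallelic in ESCs. Elk1, an ETS factor phosphorylated by ERK, had a mean mus ratio of 0.484 for ESCs and 0.335 for EpiLCs, and of 0.433 and 0.182 for XGFP+ and XGFP- PGCLCs. Rps6ka3, which encodes the ERK substrate RSK2, had 0.406, 0.163, 0.223 and 0.00439, a near loss of Xmus reads in XGFP- PGCLCs like that of Dusp9. The total count of Elk1 was 2376 in XGFP+ and 1845 in XGFP- PGCLCs, a called fall (log2 -0.36, FDR 0.000375). That of Rps6ka3 was 1377 and 1529.7 (log2 0.21, FDR 0.348, not called).

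Single cells extended the members to the rOvary. Of the rOvary wells 462 cells were kept, 88 constitutive, 125 XGFPhigh, and 249 XGFPintermediate and XGFPlow in near equal numbers, beside 24 ESCs. In that order the median depth was 354149, 636623, 645474, 640902 and 1103780 reads. Each population is 1 sample, so no test was made, and values are means over cells of the CPM, the reads of a gene scaled to the total reads of its cell. They are reads, not molecules, and all intervals cover counting error only. Constitutive cells were all on lane 2, which also held 14 XGFPhigh, 16 XGFPintermediate and 15 XGFPlow cells, and the remaining cells of these were on lane 3. ESCs alone were on lane 4, so for them lane and population cannot be told apart. The 10 empty wells held at most 242 reads and 0 reads of Dusp9, Klhl13, Dusp6, Spred1 and Etv5. Summed germ cell markers had medians of 3690 CPM in constitutive, 3433 in XGFPhigh, 4324 in XGFPintermediate and 3783 in XGFPlow cells, against 603 in ESCs.

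Dusp9 was at 37.6 CPM in constitutive, 38.3 in XGFPhigh, 15.2 in XGFPintermediate, 17.4 in XGFPlow cells and 3.89 in ESCs. A Dusp9 read was found in 94.3% of constitutive (exact binomial 95% interval 87.2 to 98.1), 91.2% of XGFPhigh (84.8 to 95.5), 63.3% of XGFPintermediate (54.3 to 71.6) and 62.8% of XGFPlow cells (53.6 to 71.4). Constitutive and XGFPhigh cells were both above the rest. On lane 2, the only one with constitutive cells, XGFPhigh cells were at 21.1 CPM, below the 37.6 of constitutive cells. Klhl13 was at 303, 198, 48.8 and 93.2 CPM in the rOvary populations and 409.9 in ESCs, with reads in 98.9%, 94.4%, 71.1% and 80.99% of rOvary cells and 100% of ESCs. Both X-linked members were therefore higher in XGFPhigh than in XGFPintermediate and XGFPlow cells. XGFPhigh against XGFPintermediate gave log2(mean CPM + 1) differences of 1.28 for Dusp9 and 2.00 for Klhl13, and against XGFPlow 1.10 and 1.081. The median of 10057 genes in these comparisons was -0.22 and -0.21, so relative to it the differences were larger.

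Among the other members Etv5 was at 71.2 CPM in constitutive, 92.4 in XGFPhigh, 16.7 in XGFPintermediate and 53.5 in XGFPlow cells and 110.7 in ESCs. It was read in 84.8% of XGFPhigh cells (77.3 to 90.6) and in 33.6% of XGFPintermediate cells (25.5 to 42.5), a log2 difference of 2.40 in level. Spred1 was at 19.01, 18.01, 36.4 and 23.5 CPM in the same order and 4.45 in ESCs. On lane 2 alone Spred1 was at 11.6, 12.2 and 23.3 CPM in XGFPhigh, XGFPintermediate and XGFPlow cells, so that its higher XGFPintermediate value was found on lane 3 (39.8). Etv4 (2.30 to 4.45 CPM), Spry4 (1.93 to 3.47) and Spry2 (1.00 to 2.30) were low in all 4 rOvary populations, with reads in at most 24.8% of the cells of each. These 3 genes lay under the mean of 5 CPM used for the comparisons by size, and no order among the populations was read for them.

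Dusp6 was at 28.9 CPM in constitutive, 13.005 in XGFPhigh, 24.5 in XGFPintermediate and 40.3 in XGFPlow cells, but its median was 0 in each, with reads in 26.6% to 42.4% of cells. Most of these reads came from few cells. The single highest XGFPlow cell had 2853 CPM, and without the highest cell of each population the means were 17.4, 12.3, 20.2 and 16.9. Cells at or below a natural-log normalized Dazl of 1 (12, 7, 12 and 30 cells), Dazl being a germ cell gene, held 80.2%, 9.91%, 71.2% and 74.9% of the Dusp6 reads. In the remaining cells Dusp6 was at 7.75, 12.4, 7.67 and 12.8 CPM, so there XGFPhigh and XGFPlow cells were close. Summed gonadal supporting, stromal, endothelial and blood markers (24 genes) reached 2795, 511, 41198 and 26278 CPM in the highest of the cells with low Dazl. The median of these sums there was 77.6, 102, 2496 and 45.4 against 61.1, 58.6, 32.5 and 23.9 in the other cells. The part of such cells in the Dusp6 values was not tested beyond this. Klhl13 in XGFPlow was likewise 66.3 CPM in cells above the Dazl limit and 175 below it, and Etv5 30.8 and 122.1.

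Of the 5 members above the floor of 5 CPM, 3 were past a 2-fold difference and higher in XGFPhigh than in XGFPintermediate cells (Dusp9, Klhl13 and Etv5), where 5.68% of genes were higher and 11.5% lower. Among cells above the Dazl limit the same 3 were past it, where 7.01% of genes were higher and 10.1% lower. In XGFPhigh against XGFPlow cells Dusp9 and Klhl13 were higher and Dusp6 was lower (log2 -1.56), where 4.57% of genes were higher and 10.8% lower, and the Dusp6 value fell within 2-fold without the highest cell. Above the Dazl limit those past it were Klhl13 (200.48 against 66.3 CPM) and Etv5 (88.1 against 30.8), both higher in XGFPhigh cells, where 6.41% of genes were higher and 7.01% lower, while Dusp9 (38.4 against 20.2) was within it. Within lane 2 Dusp9 was at 21.1, 13.6 and 9.48 CPM in XGFPhigh, XGFPintermediate and XGFPlow cells, and Klhl13 at 77.5, 34.6 and 60.6, so Klhl13 kept its direction with a smaller difference from XGFPlow. Within lane 3 they were at 40.5, 15.4 and 18.5 and at 213.5, 50.8 and 97.8. Etv5 was at 55.2, 33.99 and 15.1 in lane 2 and 97.1, 14.2 and 58.9 in lane 3, so its order between XGFPintermediate and XGFPlow differed between lanes.

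**Figure D4:**
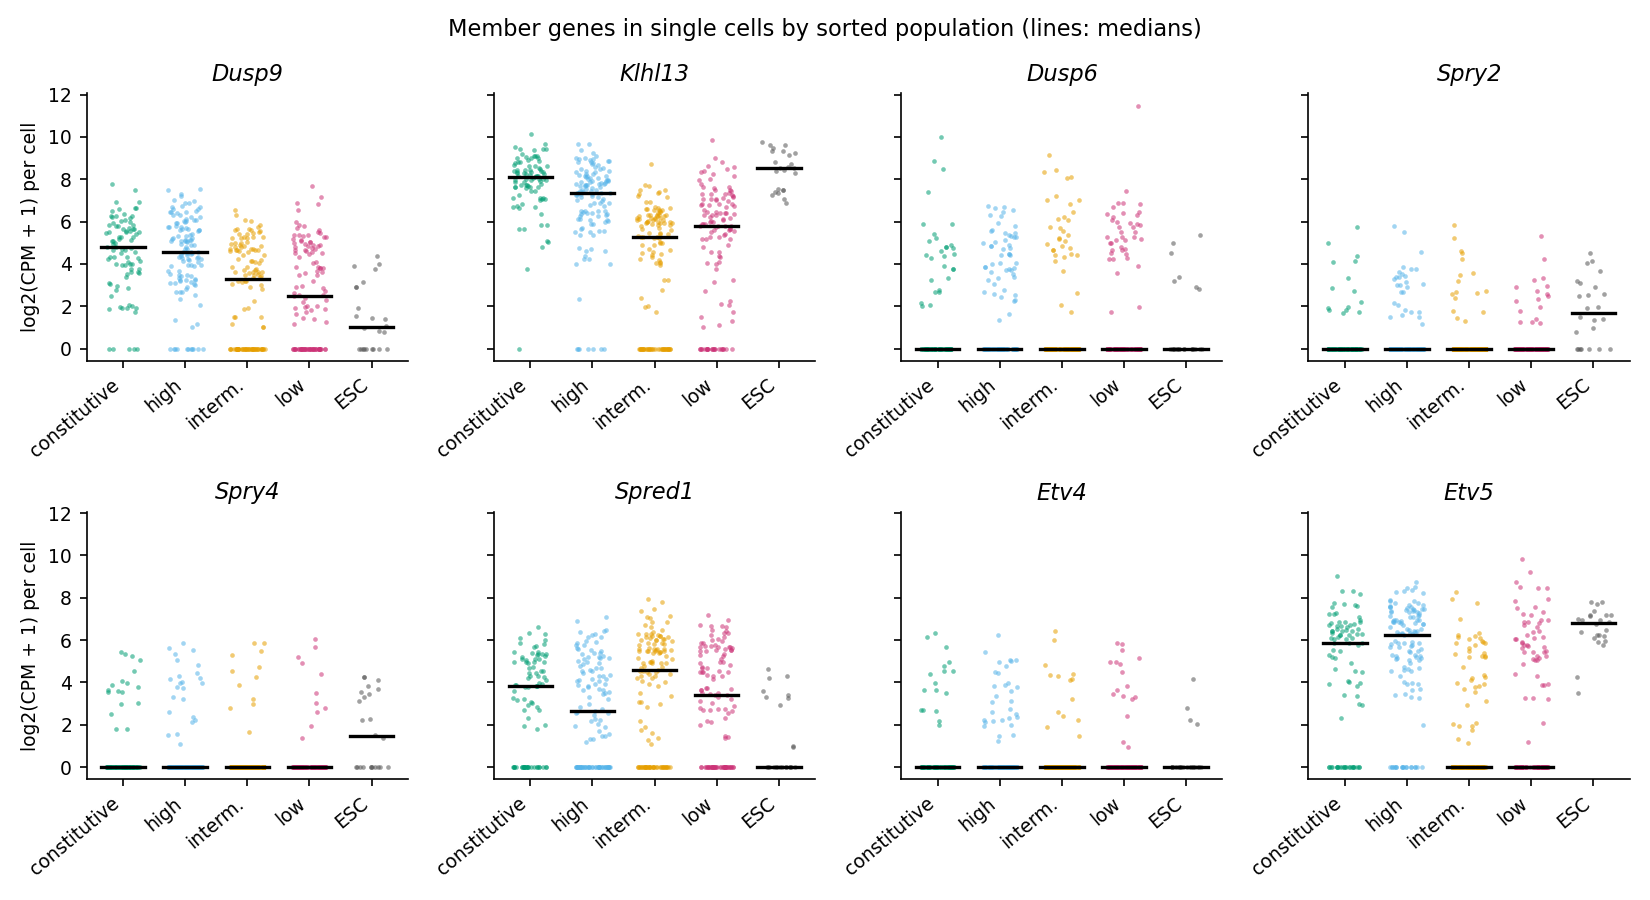
Values of log2(CPM + 1) of each member in single cells of the 4 rOvary populations and ESCs, 1 point per cell with a bar at the median. The means are not drawn. For Klhl13 they are 303, 198, 48.8 and 93.2 CPM in constitutive, XGFPhigh, XGFPintermediate and XGFPlow cells. The Dusp6 mean of XGFPlow cells (40.3 CPM) includes 1 cell at 2853 CPM.

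For Klhl13 the deposited per-cell mus ratio showed the allele in use. The mean was 0.416 ± 0.2 (SD over 71 cells) in constitutive, 0.431 ± 0.306 (93 cells) in XGFPhigh, 0.113 ± 0.304 (39 cells) in XGFPintermediate and 0.0261 ± 0.16 (39 cells) in XGFPlow cells, and 0.38 ± 0.283 (21 cells) in ESCs. A ratio above the limit taken for an expressed Xmus allele was found in 90.1% of constitutive (exact binomial 95% interval 80.7 to 95.9), 70.97% of XGFPhigh (60.6 to 79.9), 12.8% of XGFPintermediate (4.3 to 27.4) and 2.56% of XGFPlow cells (0.0649 to 13.48). Thus Xmus reads of Klhl13 were common in the populations with much GFP and rare in the others. The reporter used for the sort lies on the same X chromosome. The ratio was exactly 0 in 33 XGFPintermediate and 37 XGFPlow cells and exactly 1 in 3 and 1, values that few reads in a cell can also give, and the reads behind a ratio are unknown.

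Split by allele, the mean Klhl13 level could be given only for cells with a ratio, which need allele-informative Klhl13 reads (39 of the XGFPlow cells). It was 154 CPM on Xmus and 200.1 on Xcas in constitutive, 104.7 and 149 in XGFPhigh, 12.3 and 85.7 in XGFPintermediate, and 2.16 and 155 in XGFPlow cells. The XGFPlow value on Xcas is above the total level of all XGFPlow cells (93.2 CPM), so these values describe the cells with a ratio and not the populations. Over 219 X-linked genes the median of the mean ratios was 0.476, 0.471, 0.356 and 0.254 in the same order, and 23.3%, 30.1%, 18.7% and 14.6% of these genes had a lower mean than Klhl13. The XGFPhigh mean was 0.276 in lane 2 and 0.45 in lane 3.

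**Figure D5:**
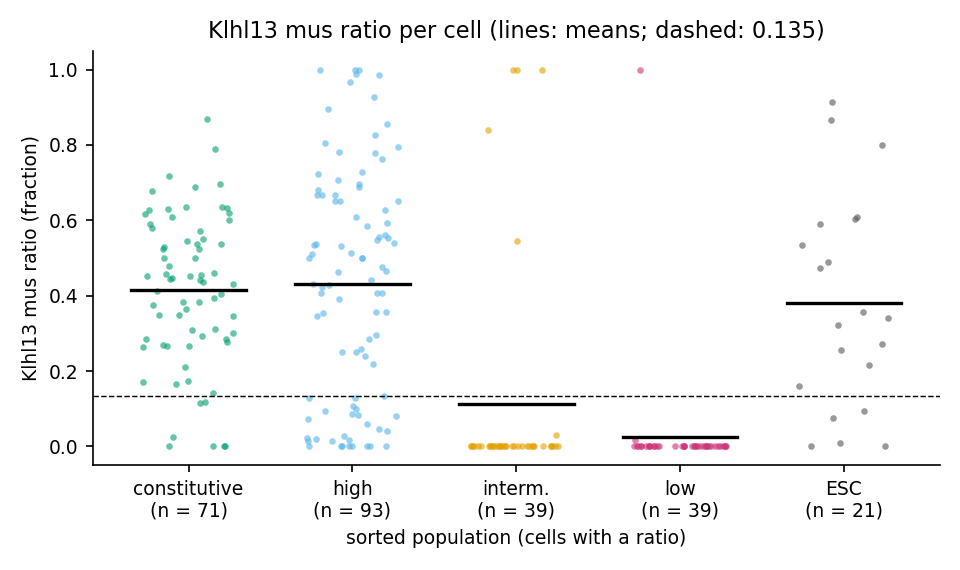
Mus ratio of Klhl13 in each single cell with a value, by population, with a bar at the mean and a dashed line at that limit. XGFPintermediate and XGFPlow cells lie mostly at 0, with means of 0.113 and 0.0261, whereas constitutive and XGFPhigh cells spread around 0.416 and 0.431.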

How the data were processed

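Bulk values were the signal the authors deposited, normalized counts per gene from DESeq2 1.16 size factors after STAR alignment to mm10 and HTSeq 0.6.1 counting, and whole reads were recovered from them for all values to within 0.01 of a read. Single-cell values were raw read counts per gene as deposited by the authors. Allele shares were the fraction of reads from Xmus as deposited by the authors. In the bulk ratio table Klhl13 was not analysed here. The 4 columns of another series and the authors' own comparisons were not used, and 232 genes had no name.

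log2(normalized count + 1) of 16281 genes with a mean above 10 was tested with limma 3.58.1 (trend, R 4.3.3) in 1 model of 16 libraries, with Benjamini-Hochberg adjustment and a threshold of 0.001, and scripts were tested on simulated data. The allelic values of Dusp9 were compared with exact permutation tests (Python 3.11.15, SciPy 1.17.1). edgeR 4.0.16 (quasi-likelihood, TMM) and DESeq2 1.42.0 on the recovered reads, pseudocounts of 0.5 and 10, no filter or a mean above 100, quantile normalization, the compared groups alone, a replicate block and leaving out each library were alternatives. Cells were kept from 4000 genes and 10000 reads upward and up to 5% of mitochondrial reads. Wells received single sorted cells, so doublets were not called. A mus ratio above 0.135 was taken as an expressed Xmus allele. For changes in single cells, genes with a mean above 5 CPM over populations were used.

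XGFP+ and XGFP- PGCLC libraries of the same number deviated together (r = 0.135 to 0.307), so the numbers pair these groups, whereas for the other pairs of groups r was -0.0105 to 0.16. Between EpiLCs and ESCs r was small (0.0409 to 0.11) but highest for the same number throughout, so a weaker pairing is possible there. An exact paired test of Dusp9 was made only between the PGCLC groups. Recovered reads of libraries within a group differed by more than sampling noise (chi-square 8.82 to 44.7 per gene). This does not show that they are independent cultures. Members, pathway lists, markers and tests were chosen with earlier results of these data known. Beside the members, the text names the gene of each list with the largest called rise and fall in EpiLCs against ESCs and in XGFP- against XGFP+ PGCLCs, with a mean above 100, X-linked biallelic list genes (ESC ratio 0.3 to 0.7), and the 2 genes most like each member. Entries of the promoter table for other members were not used here.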

Additional observations from a re-analysis of the deposited data

Results flagged for a closer look

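The Xcas-borne normalized count of Dusp9 in ESCs had 1 library apart from the others. The lowest ESC library was at 625.5, the next at 731.1 and the highest at 748.7, so that the gap to the nearest library was 0.857 of the range. Of 44 groups of 4 libraries examined this was 1, and chance alone gives such a gap in about 1 of 20 groups.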

How the results depend on the processing

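The number of members called stayed within 1.5 times under every alternative counted. A fit of the compared groups alone with a replicate block was left out of this count. Leaving out 1 library gave 7 to 7 in EpiLCs against ESCs, 5 to 5 in XGFP+ PGCLCs against EpiLCs, 4 to 5 in XGFP- PGCLCs against EpiLCs, 5 to 6 between the PGCLC groups and 4 to 4 in XGFP+ PGCLCs against ESCs. With the replicate block, Klhl13 was called in XGFP- PGCLCs against EpiLCs (log2 -0.43, FDR 4.44e-05 in limma). Between these groups, libraries of the same number deviated together less (r = -0.00212 to 0.0836) than between the PGCLC groups. For Dusp9 between XGFP- and XGFP+ PGCLCs, pairing keeps the mean difference by construction (-0.297 for the ratio, -1299 on Xmus and -1495 on Xcas), but the exact paired permutation p of 0.125 cannot pass with 4 pairs. The test for the levels was added after seeing the data. In the model of 16 libraries, the block changed no other limma call of a member in the comparisons counted here. Directions turned only for differences that were not called. Leaving out 1 library put Spry4 in XGFP- PGCLCs against EpiLCs at -0.19 to 0.11, Spred1 there at -0.323 to 0.0427 and Etv5 in XGFP+ PGCLCs against ESCs at -0.012 to 0.0643, and quantile normalization put Klhl13 in XGFP+ PGCLCs against ESCs at 0.00348. With TMM scaling the Xcas-borne Dusp9 difference of XGFP+ PGCLCs from EpiLCs was -1455 (adjusted exact permutation p = 0.0623). In single cells 5 members in place of 3 passed 2-fold between XGFPhigh and XGFPintermediate cells when cells with low Dazl were left out, the added Etv4 and Spry4 being under the floor of 5 CPM. Of the single-cell population means recomputed, 50.8% moved beyond their counting interval. The causes were not tested. Spry2, Spry4 and Etv4 in rOvary cells are limited by depth, and the bulk ratio by unknown read numbers.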
